A study of Mus musculus with 32 samples.

Results

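The 10 genes Fasn, Acaca, Acacb, Acly, Scd1, Elovl6, Dgat1, Dgat2, Srebf1 and Pck1, which build fatty acids and triglycerides, were followed in mouse mesentery after intraperitoneal pristane. They were chosen by symbol, with earlier results of these data known. Each was read by the brightest probe set annotated to that symbol alone. All 10 were on the array and passed the filter on dim probe sets, out of 18194 genes on the array and 13017 tested. Of the 50 responses (10 genes, 5 groups of treated mice), 49 were below 0 and 36 passed the test, all 36 of them lower. Acaca, Acacb, Dgat1 and Srebf1 fell in all 5 groups. Pck1 fell in 4 groups and was close to its controls in DBA mice at day 3, and Scd1 depended on which of its probe sets was read. With a sex term the F1 falls of Acaca, Srebf1 and Pck1 did not pass the test.

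The series holds 32 Affymetrix Mouse Genome 430 2.0 arrays of mesentery, the membrane that carries vessels and fat to the gut. Treated mice received 0.5 ml of pristane (TMPD), a mineral oil component that causes chronic peritoneal inflammation. The series title concerns the interferon-inducible gene Mndal and susceptibility to plasmacytoma, a plasma cell tumour. The comparisons ask how strain and time after pristane change expression.

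BALB/c mice were sampled untreated (7 arrays), at day 3 (3 arrays) and at day 18 (4 arrays). DBA mice were sampled untreated (6 arrays), at day 3 (3 arrays) and at day 18 (3 arrays), and BALB/DBA F1 mice untreated (3 arrays) and at day 3 (3 arrays). Titles carry a code, and the codes fall into 3 runs: BALB/c day 18 with 4 controls, DBA day 18 with 3 controls, and all day 3 arrays with 3 controls of each strain. Each treated group was set against the controls of its strain and run. Controls were untreated, not injected with another fluid. The F1 arrays are titled CDF1, a usual name for offspring of BALB/c females and DBA/2 males. The labels used here do not spell out the cross or the DBA substrain, and age, sex and housing are not in them. The labels do not say whether an array is 1 mouse, so every p-value here reflects array-to-array spread alone, which may be technical.

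Fat cells make fatty acids from citrate that leaves the mitochondrion. ATP citrate lyase (Acly) cuts citrate to acetyl-CoA, the acetyl-CoA carboxylases (Acaca, cytosolic, and Acacb, on the mitochondrial surface) make malonyl-CoA, and fatty acid synthase (Fasn) assembles palmitate. Elovl6 lengthens it, Scd1 puts in a double bond, and the diacylglycerol acyltransferases Dgat1 and Dgat2 add the last fatty acid of a triglyceride. Srebf1 encodes SREBP1, a transcription factor of lipogenic genes, and Pck1 encodes cytosolic phosphoenolpyruvate carboxykinase, which in fat supplies glycerol backbones.

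RefSeq promoter windows (GRCm38.p6) of 300 bases, from 250 before to 50 after the annotated start, were matched to 7 of the 10 genes. Scd1, Dgat1 and Dgat2 were not among those matched. Srebf1 had 3 windows, so 9 windows were searched on both strands. Fasn, Acacb and Acly, of 1 pathway that fell in DBA mice at day 18, are printed, and Pck1 because its day 3 pattern differed. Acaca and Elovl6 of that pathway also fell in those mice. Their windows held none of the motifs searched and are not printed. Capitals mark CCAAT (or ATTGG) and GGGCGG (or CCGCCC).

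Fasn, chr11:120824498-120824797, minus strand: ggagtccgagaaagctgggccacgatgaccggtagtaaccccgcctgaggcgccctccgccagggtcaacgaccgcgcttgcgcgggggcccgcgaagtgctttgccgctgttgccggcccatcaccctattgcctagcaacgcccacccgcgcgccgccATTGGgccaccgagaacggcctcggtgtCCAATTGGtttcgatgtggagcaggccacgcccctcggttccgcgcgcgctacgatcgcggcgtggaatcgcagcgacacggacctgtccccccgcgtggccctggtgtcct

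Acacb, chr5:114165268-114165567, plus strand: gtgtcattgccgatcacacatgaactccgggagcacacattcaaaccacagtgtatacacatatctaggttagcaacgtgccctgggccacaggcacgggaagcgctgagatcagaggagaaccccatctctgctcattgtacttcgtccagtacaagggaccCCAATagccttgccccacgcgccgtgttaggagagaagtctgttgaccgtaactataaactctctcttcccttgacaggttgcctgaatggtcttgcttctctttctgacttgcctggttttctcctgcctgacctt

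Acly, chr11:100527951-100528250, minus strand: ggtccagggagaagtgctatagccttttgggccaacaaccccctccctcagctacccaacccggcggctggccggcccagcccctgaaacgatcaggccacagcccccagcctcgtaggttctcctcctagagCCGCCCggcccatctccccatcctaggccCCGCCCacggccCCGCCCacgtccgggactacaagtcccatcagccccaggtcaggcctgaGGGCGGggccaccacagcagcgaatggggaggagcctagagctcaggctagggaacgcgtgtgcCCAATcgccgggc

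Pck1, chr2:173152823-173153122, plus strand: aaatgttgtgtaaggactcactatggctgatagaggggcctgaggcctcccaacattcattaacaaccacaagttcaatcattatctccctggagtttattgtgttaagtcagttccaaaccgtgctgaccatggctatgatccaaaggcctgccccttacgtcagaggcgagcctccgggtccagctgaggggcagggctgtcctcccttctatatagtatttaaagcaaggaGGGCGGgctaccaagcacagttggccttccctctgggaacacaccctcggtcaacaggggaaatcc

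CCAAT was in 5 of the 9 windows, those of Fasn, Acacb, Acly and 2 starts of Srebf1, and in 37.4% of all 32851 windows in the table. Fasn carried it at 3 positions, starting 90, 62 and 59 bases before the start, and the latter pair overlap by 2 bases. GGGCGG was in 4 of the 9 windows (Acly, Pck1 and 2 starts of Srebf1) and in 35.7% of all windows. The E-box CACGTG (7.15% of all windows) and the sterol element TCACNCCAC (1.24%) were not in these 9 windows. These matches describe letters only.

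The signals used are the deposited MAS5 intensities, whose trimmed means averaged 500.003 over the arrays. The median of all signals was 103.7 and their 75th percentile 519.2, so most probe sets lie below 500. Median signals ran from 90.6 to 135.3. Changes are on the log2(signal + 24.9) scale, which understates the change of dim genes. A gene is called lower or higher at an adjusted p under 0.05 in limma, with Benjamini-Hochberg adjustment over 13017 genes. Each gene has a single moderated spread, estimated over all 32 arrays, so an SE does not show the spread of its own groups. The log2 SD of Pck1, for example, was 1.59 in treated DBA mice at day 18 and 0.22 at day 3. Levels of different genes are not compared, since probe sets differ in brightness. The number of arrays, 3 or 4 a group, limits the precision.

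BALB/c control array 2 stood apart. Its highest correlation with another array was 0.858, and its mean log2 signal over 9 pancreatic acinar genes was 16.86. The other 7 arrays of its run (BALB/c day 18 and controls) lay between 6.82 and 14.15, with 5 of them above 10, and arrays of the other runs between 5.48 and 9.09. Xist signal was high on 21 arrays and low on 11. All 3 treated F1 arrays were high and all 3 F1 controls low, so sex and treatment cannot be told apart in F1 mice. The actin 3' to 5' signal ratio was 2.42 ± 0.275 (SD, n = 3) in BALB/c day 3 run controls and 1.88 ± 0.300 (n = 3) after treatment. Its mean was lower after treatment in all 5 pairs: 2.10 against 1.56 (F1) and 2.44 against 1.92 (DBA) at day 3, and 1.56 against 1.18 (BALB/c) and 1.29 against 1.19 (DBA) at day 18. Its part in the results was not tested. Fat is well represented on these arrays: the mean signal of Fabp4, a fatty acid carrier of adipocytes, was at the 99.99th percentile of probe sets and that of Adipoq, adiponectin, at the 99.94th.

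**Figure D1:**
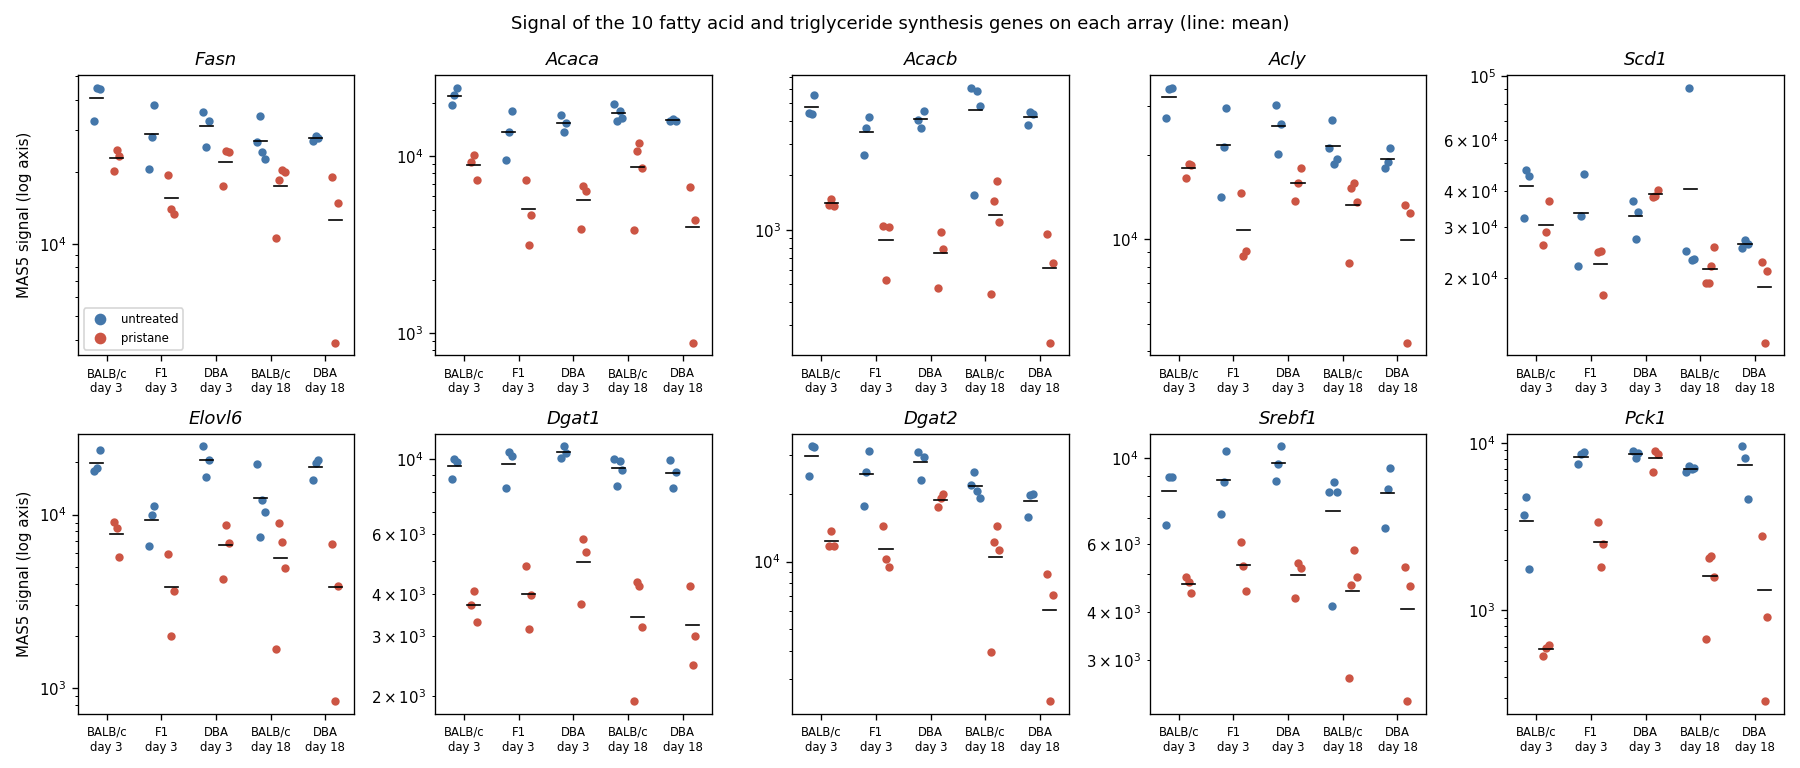
MAS5 signal (log axis) of the 10 genes on each array, one panel a gene, with untreated arrays in blue, pristane arrays in red and a line at each mean. Acacb and Dgat1 treated arrays lie far below their controls in all 5 pairs apart from BALB/c control array 2 of Acacb, while Pck1 points of DBA mice at day 3 overlap.

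Among Acly, Fasn and the carboxylases, the carboxylases showed the largest falls on the brightest probe sets. In BALB/c mice at day 3, Acacb signals were 1380.4, 1474 and 1352 after pristane and 4399, 4390.3 and 5597 in controls. The DBA day 3 signals were 479, 975 and 790.2 against 4069, 3649 and 4558. All treated arrays were below all controls in both strains.

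Acacb fell by 1.75 ± 0.47 (log2, SE; 3 against 3 arrays; adjusted p = 0.00429) in BALB/c and by 2.46 ± 0.47 (adjusted p = 0.000243) in DBA mice at day 3. In F1 mice it fell by 2.00 ± 0.47 (adjusted p = 0.0014). At day 18 treated DBA arrays read 947, 239 and 653 and controls 3795, 4457 and 4387, and Acacb fell by 2.92 ± 0.47, or 7.57-fold (adjusted p = 1.09e-05). The lowest of these 3 arrays, DBA day 18 array 2, was the lowest of all 32 arrays for 9 of the 10 genes. Without it the Acacb change was -2.38 and still called, and those of Acaca (-1.56), Elovl6 (-1.87), Fasn (-0.71) and Srebf1 (-0.70) were also smaller and called, while Acly (-0.59, adjusted p = 0.0879) was not called.

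In BALB/c mice at day 18 Acacb fell by 1.89 ± 0.40 (adjusted p = 0.000427). Treated signals were 441, 1451, 1872 and 1105 and control signals 6115, 1557, 5831 and 4829.8. The groups overlapped only through control array 2, the array richest in pancreatic transcripts; without it the change was -2.34.

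Acaca, the cytosolic carboxylase, had all treated arrays below all controls in every pair. Its day 3 signals were 9246, 10175.9 and 7379.5 against 19399.9, 22109.6 and 24479 in BALB/c mice. The DBA signals were 3883, 6771 and 6377 against 17217, 13693 and 15357. Treated DBA arrays thus read lower than treated BALB/c arrays, but so did their controls.

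The Acaca change was -1.30 ± 0.46 (adjusted p = 0.0282) in BALB/c, -1.48 ± 0.46 (adjusted p = 0.0133) in F1 and -1.47 ± 0.46 (adjusted p = 0.0165) in DBA mice at day 3. At day 18 it was -1.12 ± 0.40 (adjusted p = 0.024) in BALB/c and -2.42 ± 0.46 (adjusted p = 9.88e-05) in DBA mice. The difference between the day 18 responses was 1.30 ± 0.61 (95% interval 0.05 to 2.55) and did not pass the test (adjusted p = 0.289).

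Acly and Fasn changed less than the carboxylases on the brightest probe sets. Acly fell by 0.84 ± 0.32 (adjusted p = 0.0399) in BALB/c and 0.98 ± 0.32 (adjusted p = 0.0163) in F1 mice at day 3. At day 18 it fell by 0.73 ± 0.27 (adjusted p = 0.0324) in BALB/c and 1.11 ± 0.32 (adjusted p = 0.0048) in DBA mice. Its DBA day 3 signals were 13669.7, 15915 and 18026 against 30266, 20209 and 25792. These groups did not overlap, yet the change of -0.67 missed the threshold (adjusted p = 0.115). The next brightest Acly set, 1425326_at, changed by -1.50 in BALB/c and -1.61 in DBA mice at day 3, further than the brightest Acaca set. In the other groups that Acly set fell less than Acaca.

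Fasn passed only in DBA mice at day 18, where signals of 18993, 3890.2 and 14884 stood against 26784, 28170.4 and 27750.2. The change was -1.41 ± 0.36 (adjusted p = 0.00194). It was -0.71 without array 2, the lowest (adjusted p = 0.0316), and missed the threshold with a separate fit (adjusted p = 0.0511). In the other 4 groups every treated array was also below every control, with changes of -0.82 (BALB/c), -0.86 (F1) and -0.50 (DBA) at day 3 and -0.66 in BALB/c mice at day 18. Their adjusted p-values lay between 0.0609 and 0.324.

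Elovl6 spread widely. At day 3 its signals were 4278, 8763 and 6879 in treated and 24781, 16547 and 20595 in control DBA mice. The change was -1.67 ± 0.55 (adjusted p = 0.0235). BALB/c (-1.39, adjusted p = 0.0525) and F1 mice (-1.37, adjusted p = 0.0553) narrowly missed the threshold at day 3 with no overlap of groups. At day 18 Elovl6 fell by 1.29 ± 0.48 in BALB/c (adjusted p = 0.0315) and fell by 2.73 ± 0.55 in DBA mice (adjusted p = 0.000215). The interval of the difference between these day 18 responses, -0.07 to 2.95, allowed both no difference and a large one.

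Scd1, the desaturase that makes oleate, is read by a pair of bright probe sets that gave different answers. The brighter, 1415964_at, had the highest signal of its array on 3 of 32 arrays and a median rank of 8.5 among all probe sets. It read 38201, 38485 and 40481 in treated and 37023, 27232 and 33922 in control DBA mice at day 3. Treated arrays were all above controls there, by 0.27 ± 0.35 (adjusted p = 0.621).

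In the other groups the brighter Scd1 set changed by -0.44 (BALB/c) and -0.54 (F1) at day 3 and by -0.64 (BALB/c) and -0.55 (DBA) at day 18. No change passed (adjusted p from 0.0946 to 0.621). BALB/c control array 2 read 91330 where the other 3 controls of its run read 24711, 23137 and 23248. Without it the BALB/c day 18 change was -0.15.

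The dimmer Scd1 set, 1415965_at, fell in all 5 groups. Its day 3 means were 5905 ± 1170 (SD, n = 3) in treated and 13990 ± 2220 (n = 3) in control DBA mice, and 5950 ± 1060 against 14060 ± 450 in BALB/c mice. The changes were -1.25 in BALB/c (adjusted p = 0.0263), -1.27 in F1 (adjusted p = 0.0241) and -1.25 in DBA mice (adjusted p = 0.0315) at day 3. At day 18 they were -1.34 in BALB/c (adjusted p = 0.00532) and -2.26 in DBA mice (adjusted p = 0.000117). This probe set was looked at after the data had been seen.

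Similar gaps were seen at other bright genes. The next brightest sets fell further than the brightest in all 5 groups for Acly (1425326_at, -1.09 to -1.95), Dgat2 (1422677_at, -0.98 to -2.23) and Elovl6 (1417403_at, -1.45 to -2.95). The gap did not run one way. The next brightest Acaca set (1427595_at) fell less than the brightest in F1 (-0.93, not called, adjusted p = 0.0822) and DBA day 18 mice (-1.79) and further in the other 3 groups. A much dimmer Elovl6 set that passed the filter, 1442656_at, was called only in DBA mice at day 3 (-1.475). Its other changes were -0.67 (BALB/c) and 0.83 (F1) at day 3 and -0.33 (BALB/c) and -0.635 (DBA) at day 18. Whether the brightest spots respond less than linearly was not tested.

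**Figure D2:**
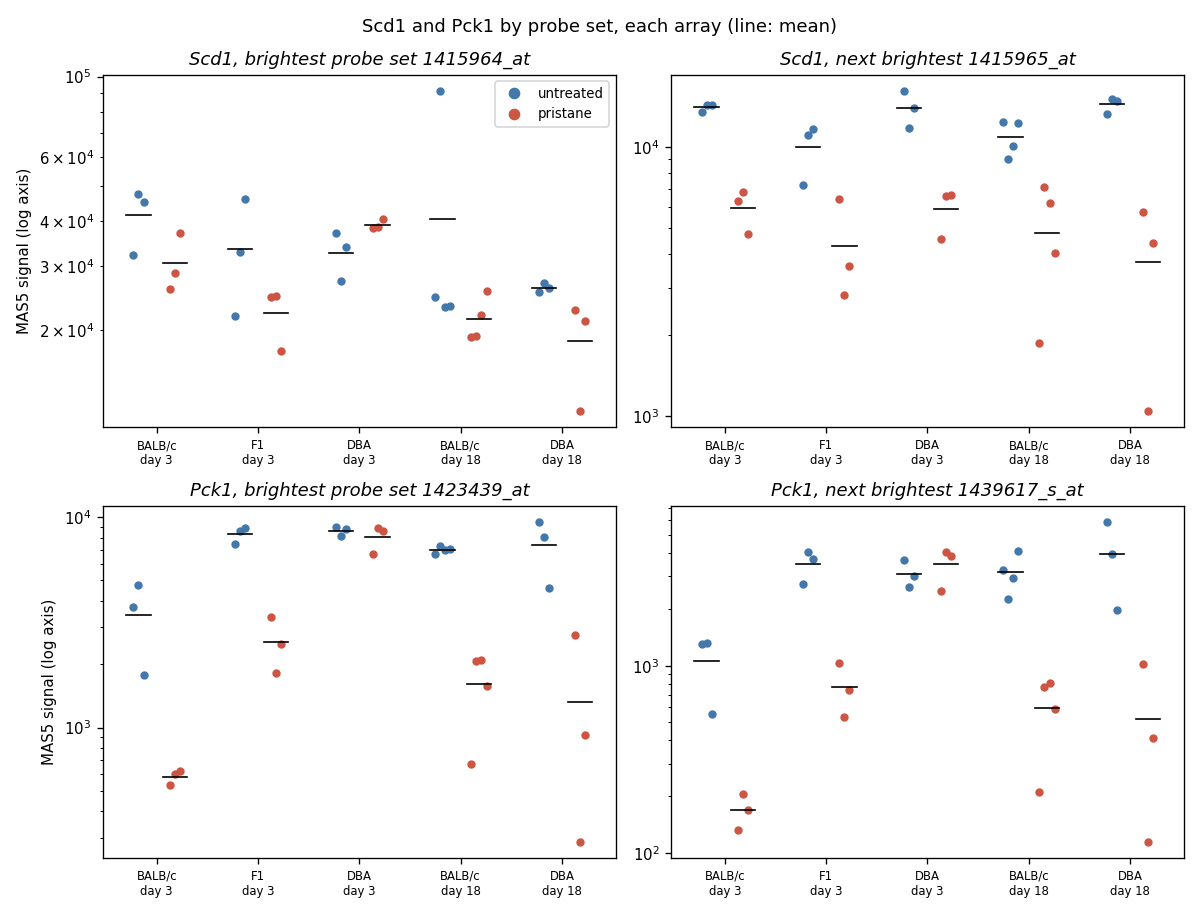
MAS5 signal (log axis) of Scd1 and Pck1 by probe set on each array, with untreated arrays in blue, pristane arrays in red and a line at each mean. The Scd1 sets part ways at DBA day 3, where 1415964_at is higher and 1415965_at lower after pristane, and both Pck1 sets overlap there.

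Dgat1, which together with Dgat2 closes triglyceride synthesis, had the smallest standard error of the 10 genes on its brightest probe set. Treated signals at day 3 were 3717, 4087 and 3303 in BALB/c and 3738, 5805.5 and 5322 in DBA mice, and no control of either strain in that run was below 8712. At day 18 the highest treated signal was 4325 in BALB/c and 4208 in DBA mice. No treated array overlapped a control in any pair.

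Dgat1 fell by 1.36 ± 0.22 (BALB/c, adjusted p = 3.07e-05), 1.28 ± 0.22 (F1, adjusted p = 6.43e-05) and 1.10 ± 0.22 (DBA, adjusted p = 0.000499) at day 3. At day 18 it fell by 1.51 ± 0.19 (adjusted p = 4.93e-07) in BALB/c and 1.52 ± 0.22 (adjusted p = 3.55e-06) in DBA mice. The other Dgat1 set that passed the filter, the much dimmer 1445229_at, changed less in every group: by -0.20 (BALB/c, adjusted p = 0.642), -0.64 (F1, adjusted p = 0.0925) and -0.47 (DBA, adjusted p = 0.253) at day 3, none called. At day 18 its changes of -0.70 in BALB/c (adjusted p = 0.0286) and -0.71 in DBA mice (adjusted p = 0.0497) were called. On the brighter set the strain difference at day 18 was 0.00, with an interval from -0.60 to 0.61.

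Dgat2 fell by 1.25 ± 0.37 (BALB/c, adjusted p = 0.00908) and 1.11 ± 0.37 (F1, adjusted p = 0.0204) at day 3, and by 1.20 ± 0.32 (BALB/c, adjusted p = 0.00345) and 1.79 ± 0.37 (DBA, adjusted p = 0.000245) at day 18. In DBA mice at day 3 it read 17469, 19273 and 20079.5 against 30849, 23126 and 29284, a change of -0.54 ± 0.37 that did not pass (adjusted p = 0.293). All 3 treated arrays were below all 3 controls there.

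Srebf1 fell in all 5 groups, by less than any other gene that did so. The changes were -0.78 (adjusted p = 0.0271) in BALB/c, -0.72 (adjusted p = 0.0416) in F1 and -0.97 (adjusted p = 0.00881) in DBA mice at day 3. At day 18 they were -0.68 (adjusted p = 0.0222) in BALB/c and -1.05 (adjusted p = 0.00244) in DBA mice. Srebf1 was read by 1 probe set, 1426690_a_at.

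Pck1 had the largest fall of the 10 genes in BALB/c mice at both times, and in DBA mice at day 18 its change of -2.92 matched that of Acacb. In BALB/c mice at day 3 it read 533, 598 and 619 after pristane against 3720.4, 4776 and 1772 in controls. In F1 mice it read 3364, 1814 and 2490 against 7424, 8552 and 8856. The DBA day 3 arrays read 6702, 8900.4 and 8603 against 8944, 8138 and 8741. BALB/c and F1 arrays were separated from their controls and DBA arrays were interleaved with theirs.

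The day 3 changes of Pck1 were -2.39 ± 0.48 in BALB/c (adjusted p = 0.000353), -1.73 ± 0.48 in F1 (adjusted p = 0.00642) and -0.10 ± 0.48 in DBA mice (95% interval -1.10 to 0.89, adjusted p = 0.903). At day 18 treated DBA arrays read 2768, 285 and 917 against 9521, 8071 and 4586, and Pck1 fell by 2.92 ± 0.48 (adjusted p = 1.81e-05). BALB/c mice at day 18 read 671, 2061, 2101 and 1579.8 against 6652, 7259.5, 6953 and 7083, and it fell by 2.23 ± 0.42 (adjusted p = 0.000103). The dimmer set 1439617_s_at changed by -2.40, -2.18, 0.15, -2.49 and -3.18 in the same 5 groups, in the order BALB/c, F1 and DBA at day 3 and BALB/c and DBA at day 18.

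The DBA response of Pck1 at day 18 differed from that at day 3 by -2.82 ± 0.69 (95% interval -4.23 to -1.41, adjusted p = 0.0179). It was the only one of the 10 genes called in that contrast, which called 4.18% of all genes and 1.71% in the lower direction. Without DBA day 3 array 3 the adjusted p was 0.0505 and none was called. Time and code run change together here, although each response was taken within its run.

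The BALB/c minus DBA difference of Pck1 at day 3, -2.29 ± 0.69 (95% interval -3.70 to -0.88), did not pass the test over all genes (adjusted p = 0.163), nor did the F1 minus DBA difference of -1.62 ± 0.69 (adjusted p = 0.301). With a spread estimated from those groups alone they did (adjusted p = 0.00705 and 0.00425), and with arrays weighted by quality they also did (adjusted p = 0.00378 and 0.0252). Without DBA day 18 array 1 or 2 the BALB/c minus DBA adjusted p was 0.0474 or 0.0407.

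Pck1 also differed among controls. Its means were 3423 ± 1524 (SD, n = 3) in BALB/c, 8277 ± 755 (n = 3) in F1 and 8608 ± 419 (n = 3) in DBA controls of the day 3 run. F1 and DBA neighbours in this order overlapped, and BALB/c controls lay below both. Xist was low on the F1 controls and high on the others, so the place of F1 mice cannot be told apart from sex. The DBA minus BALB/c difference was 1.44 ± 0.48 (adjusted p = 0.0716). BALB/c controls of the day 18 run averaged 6987 ± 256 (n = 4), 1.14 above those of the day 3 run on the log2 scale with no overlap, so the low BALB/c control level at day 3 was not seen in both runs.

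**Figure D3:**
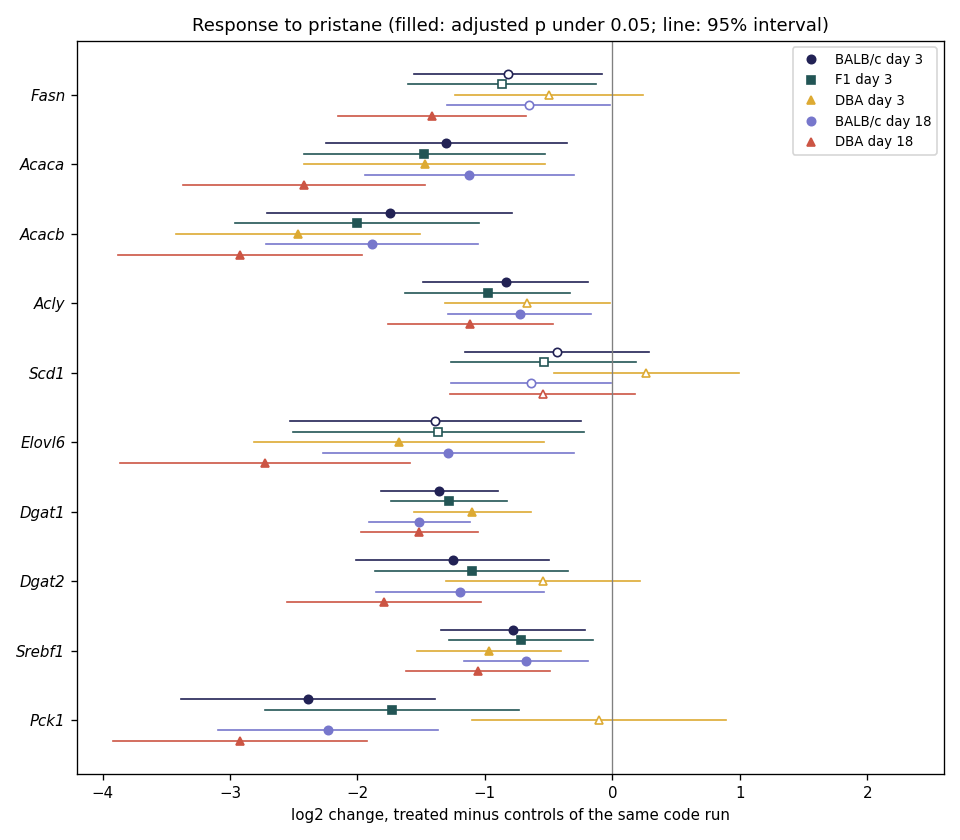
Log2 change of each gene in the 5 treated groups against controls of the same strain and code run, with 95% intervals and filled symbols at adjusted p under 0.05. Most symbols lie left of 0, Dgat1 intervals are the narrowest, and the DBA day 3 symbol of Pck1 (-0.10) lies far right of the 4 others of that gene.

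By group, 7 of 10 genes fell in BALB/c mice at day 3 (17.2% of all genes were called lower), with a median change of -1.28 against -0.01 over all genes. In 9 genes all treated arrays were below all controls (27.6% of all genes). The count was 4 without treated array 1 or 3 or without control array 6 or 7, and 3 after quantile normalization.

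In F1 mice 7 of 10 fell (18.0% of all genes), with a median of -1.19, and 8 were below all controls (26.4%). The count was 3 without treated array 2 or control array 3, 4 without treated array 3 and 3 with a sex term. In limma with that term Acaca (adjusted p = 0.0588), Dgat2 (adjusted p = 0.0803), Srebf1 (adjusted p = 0.244) and Pck1 (adjusted p = 0.085) were not called. In DBA mice at day 3, 5 of 10 fell (13.4% of all genes), with a median of -0.82, and 8 were below all controls (24.4%). The count was 3 without treated array 1 or control array 4, and 8 with a separate fit.

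At day 18, 8 of 10 fell in BALB/c mice (22.2% of all genes), with a median of -1.16, and 6 were below all controls (15.1%). The count was 4 without treated array 1 or control array 1. In DBA mice 9 of 10 fell, as did 3258 of the 13017 genes tested (47.4% were called in either direction), with a median of -1.66, and all 10 were below all controls (33.0%). The 4 genes lower in all 5 groups compare with 6.94% of all genes. With any 1 array left out, every called response of Acacb, Dgat1 and Pck1 stayed called, though the F1 call of Pck1 was lost with a sex term. At least 1 such omission ended each call of Acaca, Acly and Srebf1 at day 3 and in BALB/c mice at day 18, apart from Srebf1 in DBA mice. It also ended those of Elovl6 in DBA mice at day 3 and BALB/c mice at day 18, of Dgat2 in F1 mice and of Acly in DBA mice at day 18. Without BALB/c day 18 array 1 the changes there were -0.79 for Elovl6 and -0.45 for Srebf1, not called, and -0.78 for Dgat2, still called. The shares of these genes called lower were above the shares of all genes in each group. The genes were chosen with earlier results of these data known, so this comparison is not a test.

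Beyond Pck1, no difference between responses was called. Neither the BALB/c minus DBA difference at day 3 (0.492% of all genes called) nor at day 18 (1.01%) called any of the 10, and neither did F1 minus DBA (2.01%), F1 minus BALB/c (0.238%) or BALB/c day 18 minus day 3 (0.361%). At an unadjusted p under 0.05, limma gave 1 (Pck1), 1 (Acaca), 1 (Pck1), 0 and 0 genes. At day 18, 9 of the 10 BALB/c minus DBA differences were above 0, with a median of 0.65, but their intervals reached from -1.05 to 2.95. DBA and BALB/c controls differed in none of the 10 (7.67% of all genes; Pck1 at an unadjusted p under 0.05), and F1 controls differed from the mid-parent value in none (0.315%; Elovl6 at an unadjusted p under 0.05). Xist was low on all 3 F1 controls and high on all BALB/c and DBA controls of that run. Sex and cross therefore cannot be told apart in the mid-parent comparison.

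Other fat cell genes were lower as well. In bulk mesentery, fewer fat cells and less RNA per fat cell cannot be told apart. Over 13 adipocyte genes outside the 10, the mean log2 signal changed at day 3 by -1.23 (BALB/c), -1.07 (F1) and -0.45 (DBA), and by -1.19 in BALB/c and -1.89 in DBA mice at day 18. Counts of 10, 8, 1, 13 and 12 of the 13 fell in these groups, in that order. In DBA mice at day 3 the one that fell was Retn (-1.27), which encodes resistin, while Adipoq (0.04), Fabp4 (0.07), Lpl, lipoprotein lipase (0.04), Plin4 (-0.05) and Cd36 (-0.09) were near 0. The other 7 ran from -0.42 (Cebpa) to -1.02 (Aqp7), not called, and the list's median was -0.45. All but Retn were named after their values were seen.

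With each array's mean over those 13 genes subtracted, Acacb was lower than the adipocyte list in DBA mice at day 3 (-2.02 ± 0.34, adjusted p = 4.51e-05), and Acaca (-1.03, adjusted p = 0.0121) and Elovl6 (-1.23, adjusted p = 0.0172) were also lower; 0.607% of all genes were called lower on that scale. In either direction 81.3%, 66.1%, 10.5%, 82.8% and 92.3% of all genes were called, in the order BALB/c, F1 and DBA at day 3 and BALB/c and DBA at day 18. In BALB/c mice at day 3 only Pck1 was lower than the list (-1.16, adjusted p = 0.00245; 0.223% of all genes), and Scd1 was higher (0.79, adjusted p = 0.0413), while in F1 mice only Acacb was lower (-0.93, adjusted p = 0.0172; 0.384%). At day 18 Acacb (-0.69) and Pck1 (-1.04) were lower in BALB/c mice (0.238%), and Acacb (-1.03), Elovl6 (-0.84) and Pck1 (-1.04) in DBA mice (0.399%).

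Higher than the list at day 18 were Fasn (0.54), Acly (0.47) and Srebf1 (0.52) in BALB/c and Acly (0.77), Scd1 (1.34) and Srebf1 (0.83) in DBA mice. All genes together had medians of 1.16 and 1.85 on this scale, so being above the list there sets no gene apart. Strain differences on this scale were not called for any of the 10 at day 3 (0.246% of all genes), the smallest adjusted p being 0.193 for Pck1. The list itself holds very bright genes. With its 5 genes under the 99th percentile as reference, Acacb in DBA mice at day 3 was still lower (-1.82, adjusted p = 0.00176), while Acaca (-0.83, adjusted p = 0.245) and Elovl6 (-1.03, adjusted p = 0.159) were not called.

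**Figure D4:**
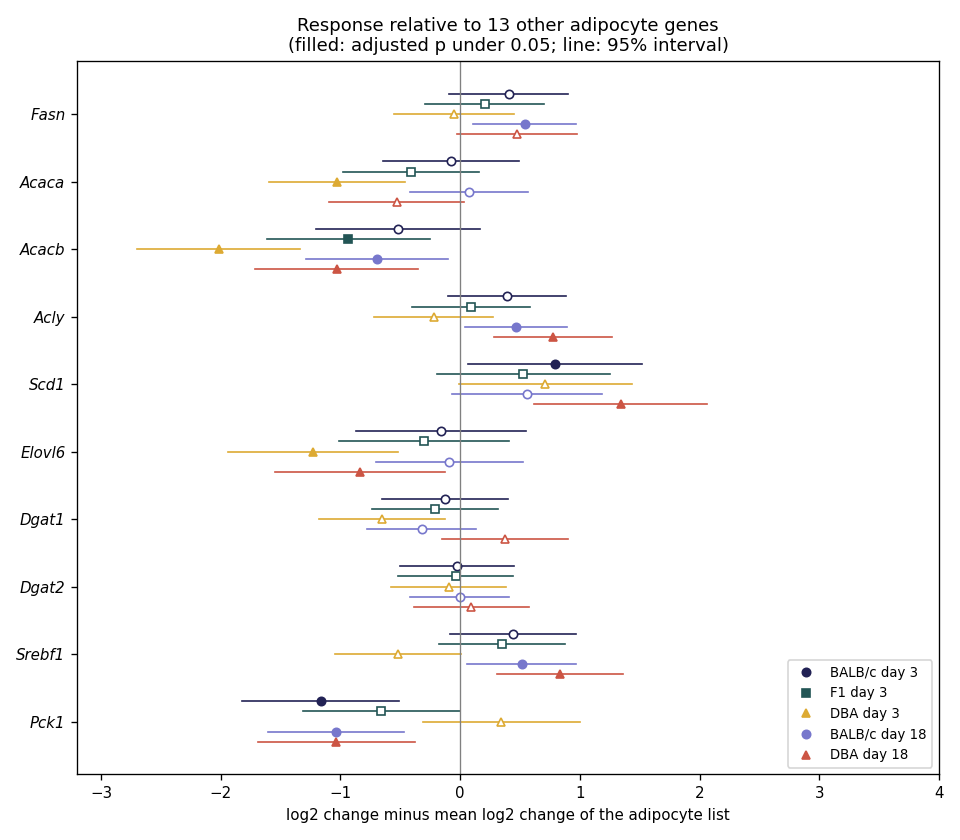
Log2 change of each gene minus the mean log2 change of 13 other adipocyte genes, for the 5 treated groups, with 95% intervals and filled symbols at adjusted p under 0.05. Acacb in DBA mice at day 3 (-2.02) lies farthest left, and Scd1 lies right of 0 in all 5 groups.

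Other cell types moved at the same time. Of 10 macrophage markers, 8, 8 and 9 rose at day 3 (BALB/c, F1, DBA) and all 10 rose at day 18 in both strains, among them Msr1, a scavenger receptor, by 3.27 to 4.09. Their mean log2 signal was 9.97 to 10.20 in DBA controls and 11.60 to 12.11 in treated DBA mice of the day 3 run, and none was at 0. Of 9 neutrophil markers, 7, 6 and 5 rose at day 3 and 9 at day 18 in each strain. Of 7 brown adipocyte markers, 2, 3, 4, 5 and 6 fell, and 1 rose in F1 mice. The mean log2 signal of these markers was 9.20 to 9.84 in DBA and 8.36 to 8.56 in BALB/c controls of the day 3 run. The part of these cell types in the 10 genes' changes was not tested.

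Partners of the pathway fell with it. Of 16 other genes that feed or extend fatty acid synthesis, 10, 8, 8, 11 and 14 fell, in the same order of groups, and 1 rose in each. In DBA mice at day 18 the largest falls were those of Pnpla3, a lipid droplet protein (-3.01), Acss2, which makes acetyl-CoA from acetate (-2.90), Elovl3, an elongase of brown fat (-2.82), and malic enzyme Me1 (-2.54). The gene that rose in all 5 groups was Elovl1, an elongase of very long chains, by 0.39 to 0.73. It was named after its values were seen.

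Of 11 genes of glycerolipid assembly, 10, 8, 9, 9 and 10 fell. Mogat1, a monoacylglycerol acyltransferase (-3.03), Lpin1, a phosphatidate phosphatase (-2.60), Gpd1, which makes glycerol 3-phosphate (-2.40), and Agpat2, an acyltransferase of lysophosphatidate (-2.20), fell furthest in DBA mice at day 18. Lpin2, a relative of Lpin1, rose in F1 (0.79), BALB/c day 18 (0.72) and DBA day 18 (0.91) mice. Its values in BALB/c (0.34) and DBA mice (0.28) at day 3 did not pass. Lpin2 was named after its values were seen.

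The machinery that releases SREBP changed less. Of its 10 genes 5, 2, 3, 4 and 4 fell and 1, 0, 1, 1 and 0 rose, with medians of -0.335, -0.156, -0.133, -0.23 and -0.063. Of all genes 17.2%, 18.0%, 13.4% and 22.2% were called lower in the first 4 groups, and 3258 of 13017 in the last. The F1 count was near the share of all genes. Insig1, which retains SREBP in the endoplasmic reticulum and is itself an SREBP target, fell in all 5 groups, with changes from -1.06 to -2.32. Srebf2, the SREBP of sterol genes, rose only in BALB/c mice at day 3 (0.57). Of 18 sterol synthesis genes 7, 7, 7, 13 and 12 fell and 1, 1, 0, 0 and 0 rose, with medians of -0.47, -0.39, -0.67, -0.89 and -0.99. Lss, lanosterol synthase (-1.95), and Nsdhl, a sterol dehydrogenase (-1.87), were among the largest falls in DBA mice at day 18.

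Fatty acid oxidation genes fell alongside the synthesis genes. There were 16 on this list, of which 15, 14, 13, 15 and 15 fell, with medians from -0.79 in DBA mice at day 3 to -1.42 in DBA mice at day 18. Pdk4, a brake on pyruvate oxidation, changed by -1.05 to -2.80 and was called in all 5 groups. Cpt1a, which admits fatty acids to mitochondria and is the target of malonyl-CoA, rose in BALB/c (0.42) and DBA mice (0.50) at day 3 and in BALB/c mice at day 18 (0.42); it was named after its values were seen. Of 13 genes of insulin and glucose input 9, 9, 6, 8 and 8 fell and 2, 1, 1, 2 and 1 rose. The insulin-responsive glucose transporter Slc2a4 fell by 1.81 (BALB/c) and 1.27 (F1) at day 3 and read -0.91 in DBA mice, not called, while Slc2a1, a basal glucose transporter, rose in all 5 groups, by 0.96 to 1.63.

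**Figure D5:**
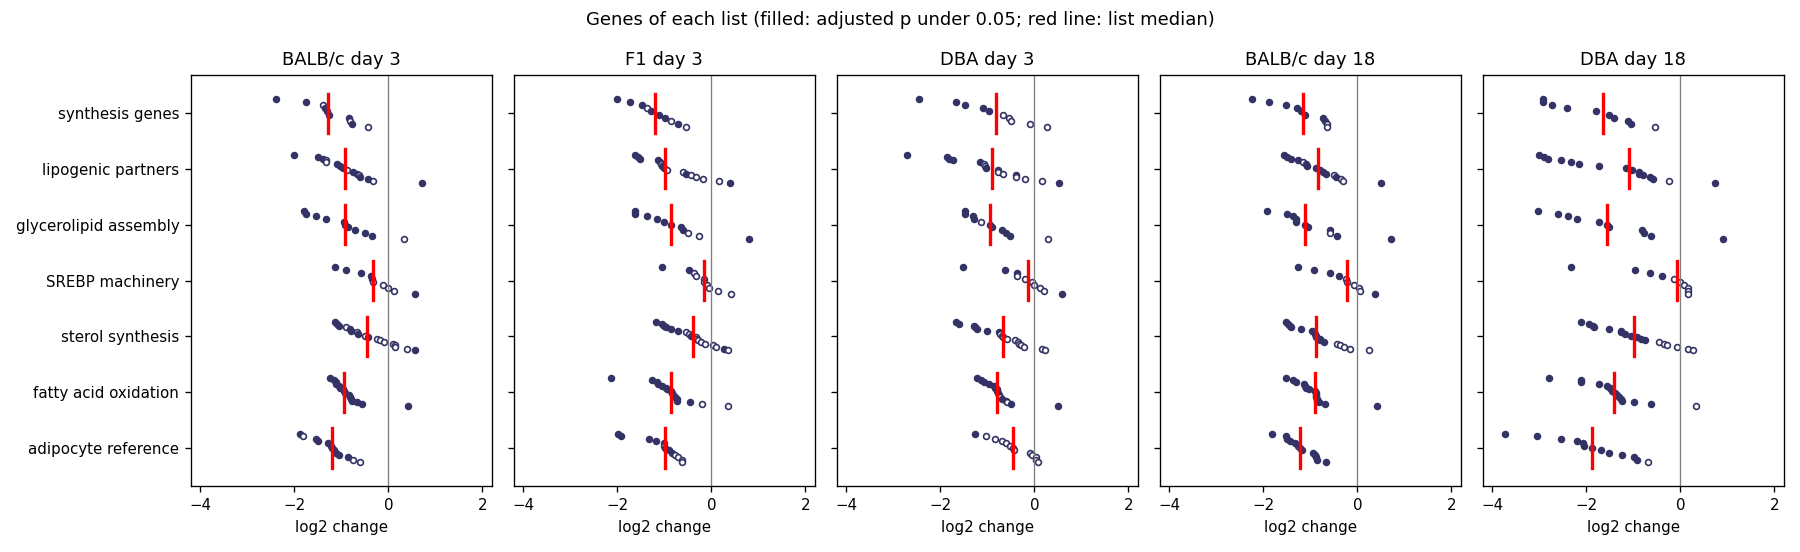
Log2 change of every tested gene in 7 lists for each treated group, with filled points at adjusted p under 0.05 and a red line at each list's median. The 4 lists of synthesis, partner, assembly and oxidation genes lie mostly left of 0 in all 5 panels, whereas the adipocyte list in DBA mice at day 3 has 12 of 13 open points.

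Across the 32 arrays, after centring each strain and run, 9 of the 10 genes correlated with the mean of the other members at r from 0.885 (Srebf1) to 0.981 (Dgat2), and Scd1 at 0.53. These arrays share the treatment contrast and fat content, so the values describe the set only. The genes outside the 10 most like their mean were Rbp4 (0.984), Cdo1 (0.984), Cebpa (0.981), Chpt1 (0.98) and Pdha1 (0.98). The brighter Scd1 set was most like Fabp4 (0.98), Selenop (0.97) and Uqcrb (0.932). BALB/c control array 2, on which that Scd1 set read 91330, was among the arrays used. The part of that array in the Scd1 correlations, including the 0.53, was not tested. Pck1 was most like Cd1d1 (0.962), Gnai1 (0.96) and Cidec (0.956).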

How the data were processed

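Mesentery RNA from 32 mouse samples was hybridised to 1-colour Affymetrix 430 2.0 arrays. The deposited values are MAS5 signal intensities, made by the authors with GCOS, per the submitters' processing notes; versions are not given in the sources used here. Probe sets were named from the platform annotation: 34958 of 45101 had 1 symbol, 932 several and 9211 none. A probe set was kept where its signal exceeded 103.7, the median, on at least 3 arrays, and the brightest per symbol stood for each gene. The values log2(signal + 24.9) of 13017 genes, the offset being the 25th percentile, were modelled in R 4.3.3 by limma 3.58.1, using 1 mean for each group and code run, a variance trend and Benjamini-Hochberg adjustment. The tests are two-sided. Code runs were read from the titles. Their meaning is not in the labels. The script was tested on simulated data. The authors used ANOVA, per the labels.

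The 10 genes and all lists were chosen with earlier results of these data known. Every one of the 10 genes is named. From each other list, up to 4 called genes of largest change in each response were eligible, and others are marked. Alternatives covered the offset, filter, normalization, probe sets, array weights, trend, a sex term, an acinar covariate, the adipocyte list and each array left out. Added after seeing the data were the next brightest probe set, a reference without its brightest genes and strain differences relative to the adipocyte list. Promoters are from RefSeq (GRCm38.p6). Marker lists of hepatocytes, intestinal epithelium, lymphocytes, mesothelium and endothelium were also fixed.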

Additional observations from a re-analysis of the deposited data

Results flagged for a closer look

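Dixon's test over 40 groups of gene and arrays found 6 values, on 3 arrays, far from their group, where chance gives about 1 in 20; 4 of the 6 were on BALB/c control array 2, and its Srebf1 value counts in 2 overlapping groups. BALB/c control array 2, the array richest in pancreatic transcripts, read low among the 7 BALB/c controls for Acacb (1557.1) and Srebf1 (4132). Within the 4 controls of its run it read high for Scd1 (91330) and low for Srebf1 (4132). BALB/c day 18 array 1 was low for Fasn (10628.6) among 4 arrays, and DBA control array 3 was low for Pck1 (4585.6) among 6.

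Of 60 differences between responses of the 10 genes, limma called 1: the Pck1 response in DBA mice was lower at day 18 than at day 3 (log2 difference -2.82 ± 0.69, adjusted p = 0.0179).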

How the results depend on the processing

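Every called response kept its sign under every alternative for the brightest probe set. Scd1 had no called response, and its BALB/c day 3 change turned from -0.44 to 0.07 with quantile normalization. Of 8270 recomputed values, 208 changed sign with neither value called. Leaving out each of the 32 arrays in turn gave 4 to 9 genes called in BALB/c, 3 to 9 in F1 and 3 to 6 in DBA mice at day 3, and 4 to 9 in BALB/c and 8 to 10 in DBA mice at day 18. It gave 0 to 1 for BALB/c minus DBA at day 3, 0 to 1 for DBA day 18 minus day 3 and 0 to 1 between DBA and BALB/c controls. Relative to the adipocyte list it gave 1 to 2, 0 to 2, 1 to 4, 2 to 6 and 5 to 8, in the order BALB/c, F1 and DBA at day 3 and BALB/c and DBA at day 18. The causes were not tested.

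Quantile normalization gave 3 in BALB/c mice at day 3 and 3 relative in F1. A separate fit for each comparison gave 8 in DBA mice at day 3, 1 for BALB/c minus DBA and 1 for F1 minus DBA at day 3, 0 for DBA day 18 minus day 3, 2 between strain controls and 1 against the mid-parent; relative counts were 6, 3, 7, 1 and 1 in the order above. Array weights gave 2 for BALB/c minus DBA and 2 for F1 minus DBA at day 3, 1 between strain controls and 1 against the mid-parent, and relative counts of 5, 4 and 6 at day 3. A sex term gave 3 in F1 mice and 0 relative. The relative BALB/c day 3 count was 1 with no filter, no trend, means over probe sets, an acinar covariate or a short adipocyte list. The relative F1 count was 2 with means over probe sets, the short list or the next brightest set. The short list gave 2 relative in BALB/c mice at day 18. A reference without its brightest genes gave 1, 0, 1 and 2 in BALB/c, F1 and DBA mice at day 3 and BALB/c mice at day 18.

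Signs turned with the short list for relative Dgat2 in DBA mice at day 18 (-0.61). They turned with the next brightest set for Scd1 in DBA mice at day 3 (-1.25), for relative Scd1 in BALB/c mice at day 3 (-0.025) and DBA mice at day 18 (-0.38), for relative Dgat1 in BALB/c mice at day 3 (1.02) and for relative Acly in DBA mice at day 18 (-0.061). Dim sets turned too: Acacb 1445754_at in BALB/c mice at day 3 (0.16) and day 18 (0.33) and DBA mice at day 18 (0.11), Acly 1438389_x_at (0.84) and 1439445_x_at (0.24) in DBA mice at day 18, Acly 1446315_at in BALB/c (0.11) and F1 mice (0.14) at day 3, and Pck1 1455209_at in DBA mice at day 18 (0.023). Median centring moved the share of calls that were higher from 55% to 41.6% over all genes in DBA mice at day 3. No paired analysis was possible because the labels give no replicate numbers. Bright probe sets, 3 or 4 arrays a group and differing tissue content limit these results. So does sex, which follows treatment in F1 mice and also separates F1 controls from the parent controls of their run.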

Other observations

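Of 8 endothelial markers 4, 5, 2, 5 and 8 fell in BALB/c, F1 and DBA mice at day 3 and BALB/c and DBA mice at day 18, and Cldn5, a tight junction protein, fell by 1.50, 1.37, 1.06 and 1.85 in all but DBA mice at day 3 (-0.64, not called). Of 8 mesothelial markers 1, 3, 2, 3 and 3 rose and 2, 1, 0, 1 and 1 fell, beside 2385, 2419, 2131, 2829 and 2917 of all 13017 genes called higher, with Wt1, a mesothelial transcription factor, higher in all 5 groups by 0.64 to 1.29. Of 8 T and B cell markers 2, 4, 2, 5 and 3 rose, beside the same counts of all genes, and 1 fell in DBA mice at day 18. The medians of the 8 were -0.02, 0.71, 0.46, 0.73 and 0.07, while Il7r, the interleukin 7 receptor, rose by 0.79 to 3.43. None of 9 pancreatic acinar markers was called in any group by limma. Of 8 intestinal epithelial markers 2 rose in BALB/c mice at day 18 (Fabp2 by 3.70 and Epcam by 2.11), 2 fell in F1 mice and 1 fell in DBA mice at day 18. The mean log2 signal of the 8 differed widely among F1 controls, from 6.37 to 10.57, and was 6.07 to 6.42 in treated F1 mice. Alb, the albumin gene, was the one of 3 tested hepatocyte markers that fell in F1 (-1.01), BALB/c day 18 (-1.61) and DBA day 18 mice (-1.36). The other 2 were not called in those groups, and the median of the 3 in BALB/c mice at day 18 was 1.54. The mean log2 signal of the 3 was 5.98 to 9.99 in F1 controls and 5.65 to 6.09 in treated F1 mice.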
